A study of Mus musculus with 12 samples.

Results

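The genes described here encode the hypoxia-inducible factor (HIF) subunits Hif1a, Epas1 and Arnt, the oxygen-sensing hydroxylases Egln1, Egln2, Egln3 and Hif1an, and Vhl, the receptor for hydroxylated HIF alpha. The 8 genes were chosen by name and found through their Ensembl identifiers among the 18278 genes counted in each library. RNA-seq was performed on mouse mammary cancer cells grown as tumourspheres, that is, as free-floating spheres in low-attachment plates. The medium held B27, EGF and bFGF at 20 ng/mL each, with 10000 cells/mL seeded for 6 days. There were 4 groups of 3 libraries, LM1, LM1KO, LM9 and LM9KO. LM1 and LM9 are lines isolated from lung metastases that formed in NOD/SCID mice from a PIK3CA H1047R mutant mammary cancer line mutagenised with the piggyBac transposon, so every group carries that oncogene and the transposon insertions of its line. LM1KO and LM9KO are the same lines after CRISPR-Cas9 editing of Nfib, a transcription factor gene, each group being an equal mix of single-cell clones and thus oligoclonal. No group was kept at low oxygen according to the labels, and the protein level of the HIF subunits was not measured here.

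HIF is a dimer of an oxygen-regulated alpha subunit, HIF-alpha, encoded by Hif1a or Epas1, and a stable partner encoded by Arnt. When oxygen is present the EGLN prolyl hydroxylases modify the alpha subunit, VHL then recognises it within a ubiquitin ligase and it is degraded, while the asparagine hydroxylase HIF1AN blocks its contact with coactivators. When oxygen falls these enzymes slow, the alpha subunit accumulates and genes for glycolysis and blood vessel growth are transcribed, among them Egln1 and Egln3 themselves. Solid tumours are a tissue where this system is often active, and much of its control acts on the protein, which mRNA levels do not show.

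Library totals ranged from 29249075 to 37162594 counts. Nfib mRNA was not lower in the KO-labelled libraries, at 228 to 239 CPM (counts scaled to library size) in LM1KO against 196 to 241 in LM1, and at 227 to 247 in LM9KO against 120 to 210.3 in LM9, so the labels could not be checked by it and each direction below rests on them. On the log2 scale Nfib differed by 0.11 in LM1 (adjusted p = 0.533) and was higher by 0.68 in LM9KO than in LM9 (adjusted p = 0.0026). LM9 replicate 1 stood with LM1: across genes its log2 CPM correlated at 0.992 with each LM1 library and at 0.964 to 0.966 with the other LM9 libraries, so the changes of the 8 genes and the list counts in LM9 are given with and without it, and other LM9 values also without it where its removal moved them by over 1.5 times. LM1KO and LM9KO were nearly alike. Against each other 0% of the 18176 genes tested passed, with a median absolute log2 fold change of 0.05, so the comparisons of both lines rest on almost the same KO-labelled profile. Whether libraries were exchanged between the lines was not tested. Marker genes of the tissue also differed. The summed CPM of 5 epithelial markers was 730 to 1282 in the parental libraries and 6.76 to 7.55 in the KO-labelled ones, where the cadherin gene Cdh1 had at most 1 count. Krt14, a basal keratin gene, went the other way, from at most 0.322 CPM in the parental libraries to 6.16 to 6.90, and made up most of the KO-labelled sum. The sum of 3 endothelial markers was 0.202 to 1.33 in the parental libraries and 350 to 359 in the KO-labelled ones, from Kdr and Cdh5, while Pecam1 stayed at or below 1.33 in every library. The sum of 5 fibroblast markers was 174 to 309 and 1172 to 1265. Pdgfra made up most of the parental sum, at 156 to 208 CPM, and was at 273 to 291 in the KO-labelled libraries. The collagen gene Col1a1 led the KO-labelled sum (1.77 to 6.31 and 868 to 979 CPM), while Col1a2 was at 0 and 0.560 to 0.915 CPM. Dcn, the decorin gene, went the other way, at 85.8 to 94.8 in LM1, 15.1 to 84.4 in LM9 and 11.2 to 12.5 in the KO-labelled libraries. The sum of 2 immune markers was 450 to 554 and 107 to 117, with Cd68 lower at 95.7 to 104 in the KO-labelled libraries and the macrophage receptor gene Csf1r at no more than 1 count in any parental library and 11.4 to 13.2 CPM in the KO-labelled ones. The part of these shifts in the results below was not tested, and in bulk RNA fewer cells of a type and less RNA per cell cannot be told apart.

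Core HIF-binding letters stood upstream of the RefSeq start sites of several of the genes. RefSeq start sites on the mouse build GRCm38.p6 were on file for 7 of the 8 genes, with 2 for Egln2 and with Epas1 the gene without an entry. The 250 bases before each start were searched on both strands for the core that HIF dimers recognise, written ACGTG or GCGTG. Windows of 5 genes held it, those of Hif1a, Arnt, Egln1, Egln2 and Egln3, and those of Vhl and Hif1an did not. Over all 32851 RefSeq windows, 16.6% held ACGTG, 28.2% held GCGTG and 38.6% held either. The windows of Hif1a (chr12:73907617-73907866, plus strand), Egln3 (chr12:54203875-54204124, minus strand) and Egln2 (chr7:27166803-27167052, minus strand) are printed because each held ACGTG, with no annotated exon of the gene inside the window. The Hif1a window lies inside the annotated span of that gene, in an intron of its longest transcript, and no GENCODE transcript starts at its end. The sequences read 5′ to 3′ toward the RefSeq start site, and capitals mark the core on either strand.
Hif1a: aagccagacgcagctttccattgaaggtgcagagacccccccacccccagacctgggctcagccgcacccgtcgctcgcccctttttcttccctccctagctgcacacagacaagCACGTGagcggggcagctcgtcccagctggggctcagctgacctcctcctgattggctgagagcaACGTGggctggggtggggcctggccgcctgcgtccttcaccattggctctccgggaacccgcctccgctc
Egln3: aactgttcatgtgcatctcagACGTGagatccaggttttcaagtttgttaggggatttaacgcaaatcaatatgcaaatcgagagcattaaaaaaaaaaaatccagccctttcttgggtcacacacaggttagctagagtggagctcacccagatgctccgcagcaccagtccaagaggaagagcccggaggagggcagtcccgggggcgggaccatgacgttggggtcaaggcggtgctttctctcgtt
Egln2: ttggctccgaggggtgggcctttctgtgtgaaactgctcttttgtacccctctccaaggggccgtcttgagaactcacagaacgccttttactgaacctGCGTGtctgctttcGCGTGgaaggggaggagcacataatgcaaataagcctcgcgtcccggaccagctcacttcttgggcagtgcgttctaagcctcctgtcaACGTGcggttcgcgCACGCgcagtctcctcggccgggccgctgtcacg
In Hif1a the core lay at -135 to -130 as CACGTG, a palindrome that counts once on each strand, and again at -70 to -66, counting back from the start. In Egln3 it lay once, at -229 to -225. Egln2 held it 4 times, once as ACGTG at -48 to -44 and 3 times as GCGTG, of which the copy nearest the start was on the opposite strand. The window of the second Egln2 start (chr7:27165729-27165978) held GCGTG once and no ACGTG. A match of letters is a description and not a bound site. Egln2 rose and Hif1a fell in both lines, while Egln3 fell in LM1 and its fall in LM9 depended on the scaling, as given below.

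The first question was how the HIF and oxygen sensor genes differed between KO-labelled and parental libraries. In LM1KO against LM1, 7 of the 8 passed an adjusted p of 0.05 in limma-voom, of which Epas1, Egln2 and Hif1an rose and Hif1a, Arnt, Egln3 and Vhl fell. In LM9KO against LM9 all 8 passed, with the same 3 higher and Egln1 added to those lower. These counts have to be read against the whole transcriptome. In LM1KO against LM1, 81.2% of the 18176 genes tested passed (43.1% higher and 38.1% lower), and in LM9KO against LM9, 82.3% passed (44.3% higher and 38.0% lower), so the share of these genes that passed was near the background. All 8 genes passed the filter on low counts, but Epas1 only through the KO-labelled libraries where it is high, so its call supports nothing by itself. Of the other 7 genes 2 rose and 4 fell in LM1, and 2 rose and 5 fell in LM9. Among the genes with 10 counts or more in a library of both groups compared, 39.3% rose and 39.5% fell in LM1, and 40.6% rose and 39.2% fell in LM9. A typical gene moved by 1.16 in LM1 and 1.24 in LM9, as the median of the absolute log2 fold changes. Beside that, Egln2 moved farther than 36.9% of all genes in LM1 and 34.6% in LM9.

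**Figure D1:**
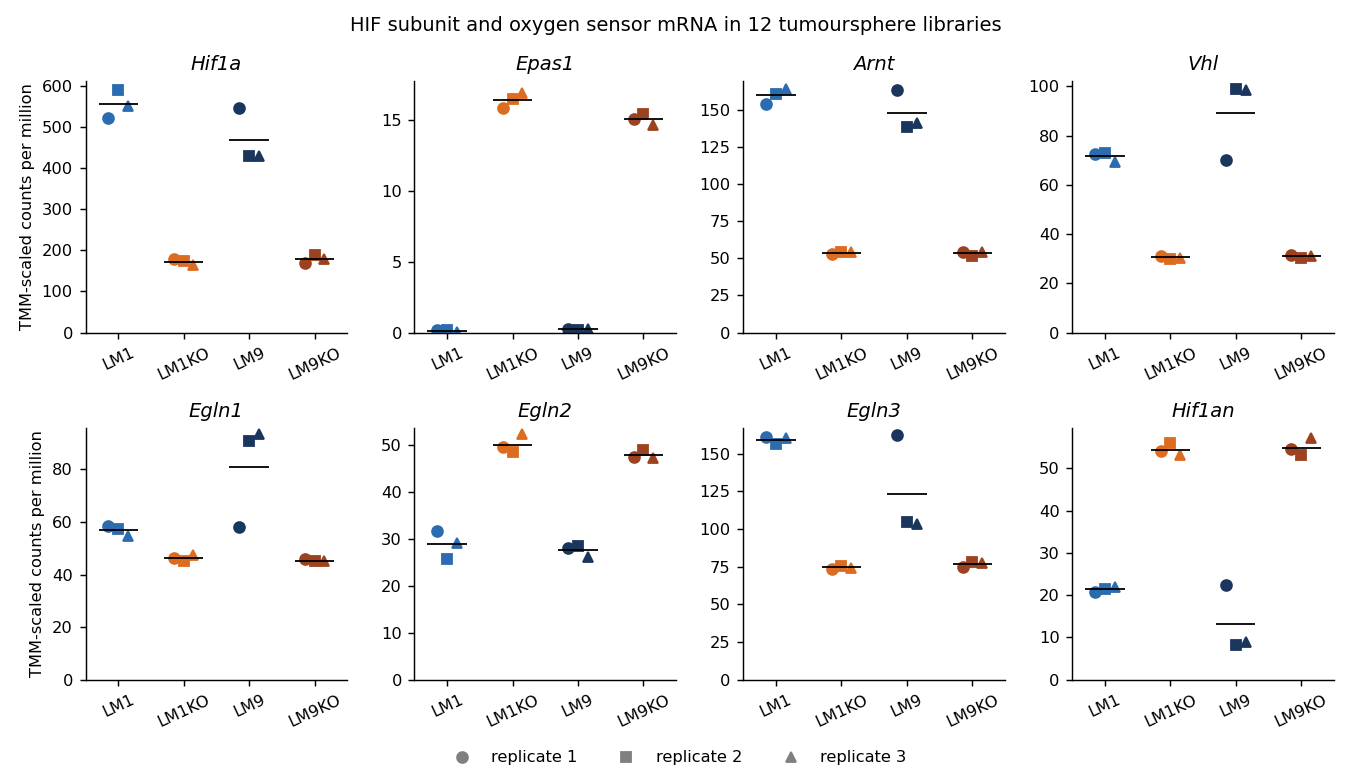
TMM-scaled CPM of each gene in the 12 libraries on linear axes from 0, with 1 symbol per library and a line at each group's mean. Epas1, Egln2 and Hif1an sit higher in both KO-labelled groups, Hif1a, Arnt and Vhl sit lower, and LM9 replicate 1 (circles) lies on this scale near LM1 rather than beside the other LM9 libraries for 6 of the genes, the exceptions being Epas1 and Egln2.

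Among the alpha subunits, Hif1a mRNA was abundant in the parental cells and lower in both KO-labelled groups. Hif1a (ENSMUSG00000021109) spans chr12:73901375-73947530 on GRCm38 and encodes the subunit found in most cell types. It was counted at 523, 590.0 and 551 CPM in LM1 and at 178, 175 and 164 in LM1KO. In LM9 it was at 546, 430.0 and 430.0 CPM, and in LM9KO at 169, 189 and 178. Each KO-labelled library was below each parental one, and the KO-labelled groups overlapped each other. Hif1a fell by 1.68 on the log2 scale in LM1 (SE 0.09, adjusted p = 1.22e-08, 3.21-fold lower) and by 1.38 in LM9 (SE 0.09, adjusted p = 6.78e-08, 2.61-fold lower), or by 1.26 in LM9 without replicate 1. Hif1a shared 148 exonic bases, 2.51% of its exons, with the gene Gm49321 on the same strand, whose level was 33.1 to 37.0 CPM in LM1, 26.8 to 32.9 in LM9 and 11.8 to 13.9 in the KO-labelled libraries. Reads in that stretch cannot be assigned to one of the pair.

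Epas1 went the other way, from near absence. Epas1 (ENSMUSG00000024140, chr17:86753700-86833410) encodes HIF-2 alpha, which is prominent in endothelium and in several cell types of lung and kidney. It had 4, 6 and 1 counts in LM1 and 7, 5 and 6 in LM9, against 629 to 640 in LM1KO and 563 to 635 in LM9KO. The parental libraries were thus close to the 3 counts taken as the detection floor, and no parental library came near a KO-labelled one. In CPM this was 0.14, 0.18 and 0.04 in LM1, 0.24, 0.20 and 0.24 in LM9, 15.8, 16.5 and 16.9 in LM1KO and 15.1, 15.5 and 14.6 in LM9KO. The ratio of the summed counts, scaled by library size, was 132 in LM1 (exact binomial 95% interval 73.6 to 265) and 66.8 in LM9 (42.2 to 113, or 68.8 without replicate 1), where the intervals cover counting error only. The fitted log2 fold changes of 7.08 in LM1 and 5.95 in LM9 (5.99 without LM9 replicate 1) depend on the offset added to low counts, and no p is given for them because Epas1 passed the filter only where it is high. The endothelial receptor gene Kdr moved beside it, from at most 2 counts in any parental library to 279 to 289 CPM in the KO-labelled ones, and its relation to Epas1 was not tested.

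Because the alpha subunits moved in opposite directions, their balance shifted within each library, a measure that needs no scaling between libraries. Per exon length, Hif1a exceeded Epas1 by 3494 and 3042 times in LM1 replicates 1 and 2. In LM1 replicate 3, with 1 Epas1 count, the ratio was 14461 with an exact binomial 95% interval of 2595 to 571231, for counting error only. It was 1726 to 2191 in LM9, but 9.22 to 10.7 in LM1KO and 10.6 to 11.6 in LM9KO. Epas1 supplied at most 0.0579% of the alpha subunit mRNA in the parental libraries and 7.94% to 9.78% in the KO-labelled ones. Hif1a was therefore still the main alpha subunit transcript in all 12 libraries. The log2 ratio of Hif1a to Epas1 differed by a mean of -8.26 in the KO-labelled libraries (-9.07 in LM1 and -7.45 in LM9, or -7.38 without LM9 replicate 1, lower in 6 of 6 libraries). With the single count raised to the floor of 3 counts the LM1 difference was -8.54 and the mean -8.00. No p is given for this ratio, because the levels of Hif1a and Epas1 each separated the groups already. The sum of the alpha subunits in TPM, the CPM-like unit that corrects for exon length, was 217 ± 16.6 (SD, n = 3) in LM1 and 87.6 to 93.1 in LM1KO. In LM9 it was 211, 121 and 125 TPM, against 88.1 to 98.4 in LM9KO.

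**Figure D2:**
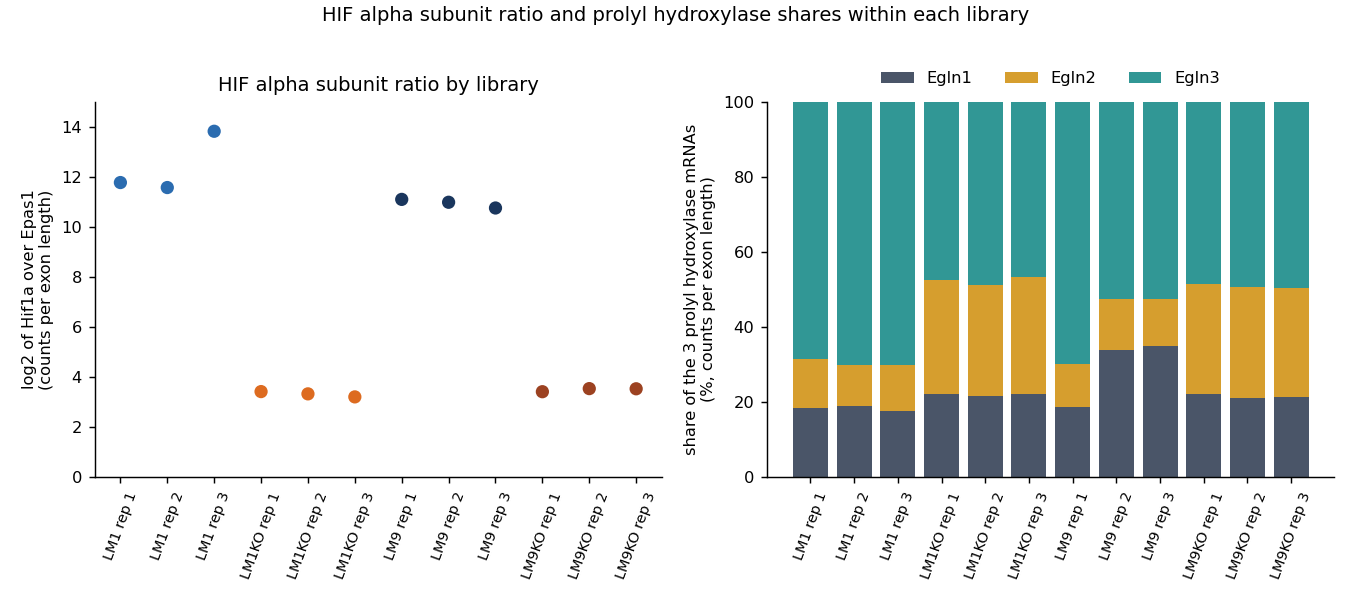
For each library, the left panel shows the log2 ratio of Hif1a to Epas1 per exon length, and the right panel the shares of Egln1, Egln2 and Egln3 in the sum of the prolyl hydroxylase mRNAs per exon length. The ratio is at 10.8 to 13.8 in the parental and 3.20 to 3.54 in the KO-labelled libraries, and the Egln2 share is larger in every KO-labelled library.

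Arnt, the partner subunit, fell in both lines, as did Hif1a. Arnt (ENSMUSG00000015522, chr3:95434388-95497240) was at 155, 161 and 164 CPM in LM1 and at 53.0, 54.6 and 54.3 in LM1KO. LM9 had 164, 138 and 142 CPM and LM9KO had 54.1, 52.0 and 54.2. No KO-labelled library reached a parental one, and the groups of KO-labelled libraries overlapped. Arnt fell by 1.57 on the log2 scale in LM1 (SE 0.07, adjusted p = 1.50e-09) and by 1.47 in LM9 (SE 0.07, adjusted p = 2.72e-09), the latter by 1.39 without replicate 1 of LM9. Within libraries, Hif1a exceeded Arnt per exon length by 4.56 to 4.97 times in LM1, 4.12 to 4.53 times in LM9, 4.11 to 4.57 times in LM1KO and 4.25 to 4.94 times in LM9KO. LM1 was above LM9 with no overlap, and each KO-labelled group overlapped its own parental line. Arnt has several transcripts of unequal length. Taking each gene's longest transcript in place of all exons lowered the ratio to 3.07 to 3.35 in LM1, 2.78 to 3.05 in LM9, 2.77 to 3.08 in LM1KO and 2.87 to 3.33 in LM9KO. This scales every library by the same factor, so the overlaps could not change. Arnt2, a paralogue that can also pair with HIF alpha subunits, was at 1.30 to 1.84 CPM in LM1, 0.524 to 1.86 in LM9 and 92.4 to 96.5 in the KO-labelled libraries. It rose by 5.93 and 6.75 on the log2 scale (SE 0.24 and 0.29, adjusted p = 8.60e-10 and 1.54e-09), the latter 7.36 without LM9 replicate 1. Per length, Arnt2 stood at 33.7 to 35.6 TPM in the KO-labelled libraries, above the 18.3 to 19.3 TPM of Arnt, whereas in each parental library Arnt was above Arnt2.

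The prolyl hydroxylases did not move as a group. Egln2 rose in both lines, Egln3 fell in both with TMM scaling, and Egln1 fell in LM9 and missed the threshold in LM1. Per length, Egln3 had the highest level of the enzymes in all 12 libraries. The second was Egln1 in the parental libraries and Egln2 in the KO-labelled ones.

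Egln1 (ENSMUSG00000031987, chr8:124908587-124949324) encodes the enzyme taken as the main brake on HIF alpha in normal oxygen. It was at 58.6, 57.3 and 54.8 CPM in LM1 and at 46.5, 45.2 and 47.4 in LM1KO. LM9 replicate 1 had 58.2 CPM, the other LM9 libraries had 90.7 and 93.3, and LM9KO had 45.9, 45.1 and 45.0. On this scale every KO-labelled library was below every parental one. The log2 fold change was -0.29 in LM1 (SE 0.15, 95% interval -0.62 to 0.03, adjusted p = 0.0823), which missed the threshold, and Egln1 fell by 0.80 in LM9 (SE 0.14, adjusted p = 0.000307). Without LM9 replicate 1 the spread shared by all groups narrowed, and Egln1 passed in LM1 at the same size (log2 fold change -0.29, adjusted p = 1.74e-06) and fell by 1.02 in LM9. The LM1 value depended on scaling too. It was -0.07 with library totals (adjusted p over the alternatives 1.74e-06 to 0.55), and in TPM Egln1 was at 35.3 to 37.1 in LM1 and 35.6 to 37.4 in LM1KO, which overlap.

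Egln2 (ENSMUSG00000058709, chr7:27158658-27166802) encodes a prolyl hydroxylase that, unlike the others, is not known for induction by low oxygen. It was at 31.7, 25.7 and 29.2 CPM in LM1 and at 49.6, 48.6 and 52.3 in LM1KO. It was at 28.1, 28.5 and 26.1 CPM in LM9 and at 47.5, 49.0 and 47.3 in LM9KO. The parental lines overlapped, LM9 replicate 1 included, and each KO-labelled library was above them. Egln2 rose by 0.80 on the log2 scale in LM1 (SE 0.08, adjusted p = 1.47e-06, 1.75-fold) and by 0.80 in LM9 (SE 0.08, adjusted p = 1.82e-06, 1.74-fold), or by 0.82 in LM9 without replicate 1. This was the closest match between lines among these genes, with a difference of 0.01 and a 95% interval of -0.24 to 0.25.

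Egln3 (ENSMUSG00000035105, chr12:54178981-54203860) encodes the prolyl hydroxylase with the most marked induction by hypoxia in many cell types. It was at 161, 157 and 161 CPM in LM1 and at 73.6, 75.7 and 74.1 in LM1KO. LM9 had 162 CPM in replicate 1 and 104 in each of the others, and LM9KO had 74.9, 77.9 and 77.5. Egln3 fell by 1.10 on the log2 scale in LM1 (SE 0.14, adjusted p = 1.51e-05). In LM9 it fell by 0.66 (SE 0.14, adjusted p = 0.000947), and by 0.43 without replicate 1, but this fall did not hold under another scaling. With library totals the LM9 log2 fold change was -0.30 (adjusted p = 0.138), and with library totals and without LM9 replicate 1 it was -0.02 (adjusted p = 0.678). In TPM, LM9 replicates 2 and 3 were at 65.0 and 66.7, below the 78.8 to 82.7 of LM9KO.

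The composition of the enzyme pool was compared within libraries, where scaling drops out. Egln3 supplied 68.6% to 70.2% of the 3 prolyl hydroxylase mRNAs per length in LM1 and 46.6% to 48.7% in LM1KO. In LM9 it supplied 69.9%, 52.5% and 52.4%, and in LM9KO 48.6% to 49.7%. The Egln3 share differed by a mean of -15.5 percentage points in the KO-labelled libraries (-22.0 in LM1 and -9.06 in LM9, lower in 6 of 6 KO-labelled libraries), and by -12.6 points when LM9 replicate 1 was left out. No p is given here either, because the CPM of Egln2 and Egln3 each separated the groups already. Without that library the LM9 value was -3.25 points, so it carried most of the LM9 difference. The Egln2 share was larger in turn, at 11.0% to 13.6% of the pool in the parental libraries and 28.9% to 31.3% in the KO-labelled ones. Egln1 supplied 17.7% to 19.0% in LM1, 18.6%, 33.8% and 35.0% in LM9 and 21.1% to 22.2% in the KO-labelled libraries. The summed level of the enzymes was 196 to 199 TPM in LM1, 199, 124 and 127 TPM in LM9 and 162 to 169 TPM in the KO-labelled libraries, so it lay below LM1 in LM1KO and between the LM9 libraries in LM9KO.

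Vhl and Hif1an, which act on the alpha subunit after and beside the prolyl hydroxylases, moved in opposite directions. Vhl (ENSMUSG00000033933, chr6:113623959-113631633) was at 72.7, 72.9 and 69.3 CPM in LM1 and 31.2, 30.0 and 30.5 in LM1KO. It was at 70.3, 98.7 and 98.4 CPM in LM9 and 31.3, 30.5 and 31.1 in LM9KO. Each KO-labelled library lay below each parental one. Vhl fell by 1.23 on the log2 scale in LM1 (SE 0.12, adjusted p = 1.30e-06) and fell by 1.50 in LM9 (SE 0.11, adjusted p = 2.00e-07), with -1.67 without replicate 1 of LM9. Relative to Hif1a per length, Vhl was at 0.243 to 0.274 in LM1 and 0.317 to 0.364 in the KO-labelled libraries, while LM9 had 0.253, 0.452 and 0.450.

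Hif1an (ENSMUSG00000036450, chr19:44562850-44576274) was at 20.8, 21.5 and 22.0 CPM in LM1 and at 54.0, 56.1 and 53.2 in LM1KO. LM9 had 22.3 CPM in replicate 1 and 8.22 and 8.86 in the others, and LM9KO had 54.6, 53.1 and 57.1. Hif1an rose by 1.34 on the log2 scale in LM1 (SE 0.22, adjusted p = 0.000153) and by 2.19 in LM9 (SE 0.25, adjusted p = 6.88e-06). Without LM9 replicate 1 the LM9 value was 2.69, a 6.43-fold rise in place of 4.56-fold. Relative to Hif1a per length, Hif1an stood at 0.0171 to 0.0365 in the parental libraries and at 0.251 to 0.289 in the KO-labelled ones.

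**Figure D3:**
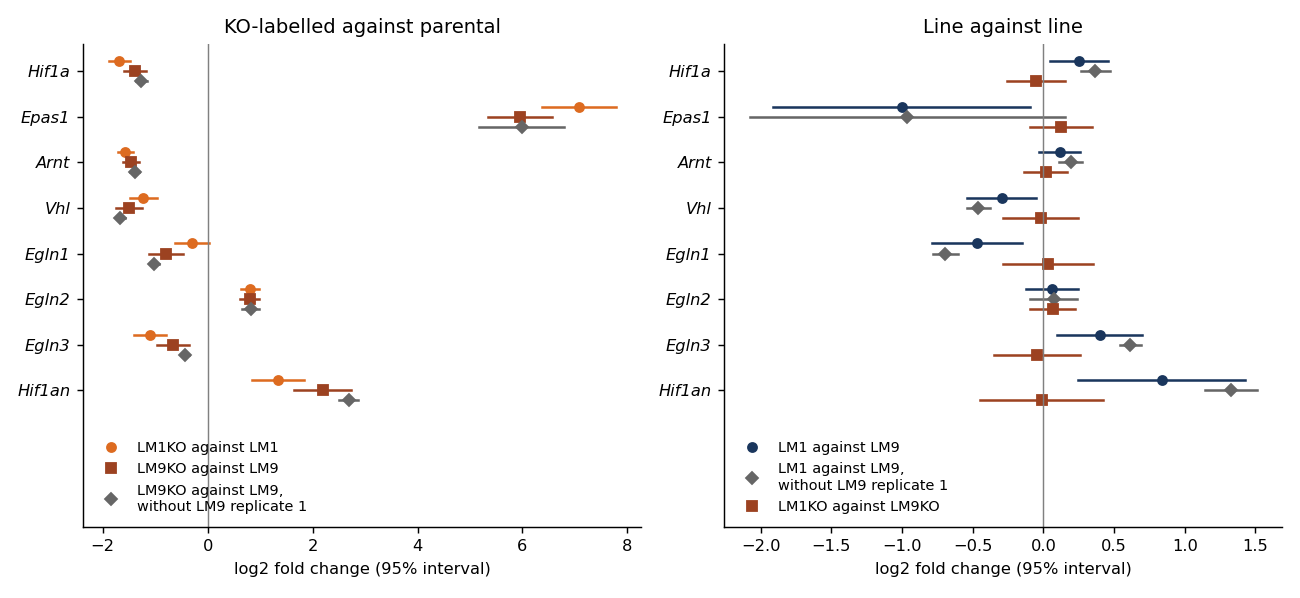
Fitted log2 fold changes with 95% intervals for the 8 genes, left for the KO-labelled against parental libraries and right for line against line. Epas1, Egln2 and Hif1an lie above 0 in both lines and the others at or below it, with the Egln3 value of LM9 at -0.66 here but -0.30 and past no threshold with library totals, and the LM1KO against LM9KO values all span 0.

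The second question was whether the lines differed from each other. Between the parental lines 0 of the 8 genes passed in limma-voom, beside 0.00550% of all genes tested, with 6 of the 8 at an unadjusted p under 0.05, beside 47.7% of all genes. edgeR called 0 of the 8, beside 0.00550% of all genes, and DESeq2 called 2, beside 33.1%. This count turned on LM9 replicate 1. When it was left out 6 of the 8 passed, beside 65.7% of all genes. Hif1a, Arnt, Egln3 and Hif1an were then higher in LM1 (log2 fold change 0.37, 0.19, 0.62 and 1.33) and Egln1 and Vhl were lower (-0.69 and -0.46). Egln2 (0.07, 95% interval -0.09 to 0.24) and Epas1 (-0.96, 95% interval -2.08 to 0.15) did not pass. With library totals as well 7 passed, beside 65.5% of all genes. The log2 fold changes were then 0.57 for Hif1a, 0.39 for Arnt, 0.82 for Egln3, 1.53 for Hif1an, -0.49 for Egln1 and -0.26 for Vhl. Egln2 then passed too, at 0.27 (adjusted p = 0.00515).

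Between LM1KO and LM9KO 0 of the 8 genes passed, beside 0% of all genes. At an unadjusted p under 0.05 there were 0 of the 8, beside 178 of the 18176 genes tested. edgeR and DESeq2 called 0 of the 8, beside 0% of all genes in each. The log2 fold changes ran from -0.05 for Hif1a to 0.12 for Epas1. Their 95% intervals reached from -0.45 to 0.42 for Hif1an, the widest, and from -0.14 to 0.17 for Arnt, the narrowest.

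The difference of the KO-label change between lines was tested as an interaction. Of the 8 genes 0 passed, beside 0% of all genes, with 5 at an unadjusted p under 0.05, beside 24.7% of all genes. edgeR and DESeq2 called 0 of the 8, beside 0.00550% and 0.386% of all genes. Without LM9 replicate 1, 6 of the 8 passed, beside 57.2% of all genes. The log2 change was then more negative in LM1 for Hif1a (-0.42) and Egln3 (-0.66), less negative for Egln1 (0.73) and Vhl (0.44), more negative for Arnt by 0.18, and less positive for Hif1an (-1.34). Their sizes were close to those of the differences between LM1 and the remaining LM9 libraries given above. This follows by arithmetic, since LM1KO and LM9KO hardly differed, so the interaction largely repeats the comparison of the parental lines.

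Levels were also ranked per exon length. In LM1 the order by mean TPM was Hif1a at 217, Egln3 at 138, Vhl at 55.0, Arnt at 46.0, Egln1 at 36.4, Egln2 at 23.7, Hif1an at 7.47 and Epas1 at 0.0496. No neighbours in that order overlapped across the 3 libraries. In LM1KO it was Hif1a at 82.7, Egln3 at 79.0, Egln2 at 50.6, Egln1 at 36.5, Vhl at 28.8, Hif1an at 23.3, Arnt at 19.0 and Epas1 at 8.30. There the ranges of Hif1a (79.0 to 85.1 TPM) and Egln3 (77.8 to 80.5 TPM) overlapped, which they did not in LM1. Within libraries Hif1a was above Egln3 in all 12, by 1.47 to 1.70 times in LM1, 1.52 to 1.87 times in LM9 and 1.00 to 1.09 times in the KO-labelled libraries. LM9KO gave the same order, with Hif1a at 80.6 to 90.6 TPM and Egln3 at 78.8 to 82.7, which overlap as well. In LM9 the means ran from Hif1a at 152 and Egln3 at 90.2 through Vhl at 54.8, Egln1 at 41.1, Arnt at 35.2 and Egln2 at 18.6 to Hif1an at 4.02 and Epas1 at 0.0761. Hif1a overlapped Egln3 there, and Egln1 overlapped Arnt, with LM9 replicate 1 at the top of the Hif1a, Egln3 and Arnt ranges. The Hif1an mean in LM9 joined 7.69 TPM in replicate 1 with 2.06 and 2.30 in the others.

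**Figure D4:**
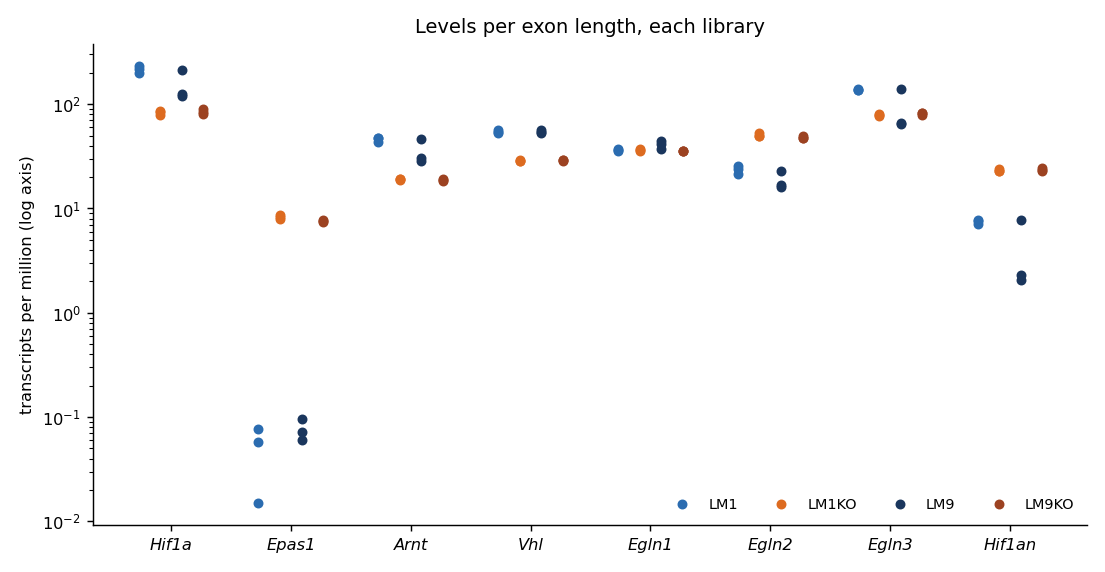
TPM of each gene per library on a log axis, coloured by group, for comparing levels between genes. Epas1 moves from below 0.1 TPM in the parental libraries to 7.36 to 8.57 TPM in the KO-labelled ones, and the LM9 libraries spread most for Egln3, Hif1a, Arnt and Hif1an, where replicate 1 is the highest of its group.

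The wider pathway was described by 5 lists of genes that do not include the 8 above. Their counts and medians are set beside all genes, whose median log2 fold change was 0.08 in LM1 and 0.13 in LM9 and was 0.31 and 0.49 with library totals in place of TMM factors. The counts stand beside the 43.1% of all genes that passed as higher and the 38.1% that passed as lower in LM1, and the 44.3% and 38.0% in LM9. Without LM9 replicate 1 these shares were 46.4% and 42.1% in LM1 and 47.7% and 41.2% in LM9. A gene that passed the filter on low counts only through the group where it is high had to differ, so the lists that hold such genes are also counted without them, beside the 39.3% higher and 39.5% lower in LM1 and 40.6% and 39.2% in LM9 given above.

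Of the 5 tested partners and related bHLH-PAS subunits, 2 rose and 3 fell in each line, with medians of -1.15 and -0.95, and without LM9 replicate 1 the LM9 count was 1 higher and 3 lower. Arnt2 rose as given above. Ahr, the dioxin receptor that also binds ARNT, fell from 201 ± 7.58 CPM (SD, n = 3) in LM1 to 16.6 ± 0.171 in LM1KO, and Arntl, a clock subunit, fell from 28.7 ± 1.44 to 12.9 ± 0.331. Hif3a was not analysed here.

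The 16 genes of the VHL ubiquitin ligase and HIF turnover gave 8 higher and 4 lower in LM1 and 7 higher and 6 lower in LM9. Their medians were 0.33 and -0.08, and the LM9 median became 0.28 with library totals. Without LM9 replicate 1 the counts were 9 and 6 in LM1 and 7 and 8 in LM9. Rbx1, the RING subunit of the VHL ligase, rose from 42.3 ± 1.58 CPM in LM1 to 147 ± 3.17 in LM1KO (SD, n = 3). Usp20, a deubiquitinase that can act on HIF-1 alpha, rose by 1.88 and 3.02 on the log2 scale in LM1 and LM9, the latter 3.65 without LM9 replicate 1, and Senp1, a SUMO protease, rose by 2.46 and 2.36. Rack1, a scaffold linked to VHL-independent turnover, fell (log2 fold change -2.06 and -2.35), as did Usp33 (-1.22 and -0.60) and Siah1a (-0.63 and -0.50).

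Among the 11 coactivators and inhibitors 4 rose and 6 fell in LM1, and 4 rose and 4 fell in LM9 (6 and 5 without LM9 replicate 1), with medians of -0.41 and 0.04. The medians were -0.18 and 0.40 with library totals, and that of LM9 was 0.24 without LM9 replicate 1. Without Cited4, which was under 10 counts in each library of a group, 4 rose and 5 fell in LM1 and 4 rose and 3 fell in LM9, with medians of -0.02 and 0.20. Kat5, Cdk8 and Sirt1 rose, by 1.24, 0.75 and 0.72 on the log2 scale in LM1 and by 1.22, 0.72 and 0.49 in LM9. Cited2, which competes with HIF alpha for the coactivator p300, fell (log2 fold change -0.58 in LM1 and -0.90 in LM9). Ing4 (log2 fold change -1.37 and -1.15) and Ncoa2 (-1.29 and -0.83) fell too.

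Other enzymes that need oxygen and 2-oxoglutarate or iron showed more falls than rises. Of 21 such genes 6 rose and 14 fell in LM1, and 5 rose and 11 fell in LM9, with medians of -0.85 and -0.37, the latter -0.02 with library totals, and without LM9 replicate 1 the counts were 7 and 14 in LM1 and 5 and 13 in LM9. Without P4htm and Tet1, which were under 10 counts throughout a group, 5 rose and 13 fell in LM1 and 4 rose and 11 fell in LM9. P4ha1, a collagen prolyl hydroxylase, fell from 883 ± 26.2 CPM in LM1 to 136 ± 0.895 in LM1KO (SD, n = 3) and fell by 2.98 on the log2 scale in LM9. The histone demethylases Kdm5b and Kdm6b fell (log2 fold change -3.18 and -2.74 in LM1 and -2.91 and -2.50 in LM9), whereas Kdm5c rose by 0.61 in each line. Ado, a cysteamine dioxygenase, rose by 0.35 in LM1 and 0.71 in LM9.

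Genes listed as HIF targets were mostly lower. Of 39 tested, 10 rose and 23 fell in LM1, and 9 rose and 25 fell in LM9, with medians of -1.37 and -1.88 (-1.14 and -1.52 with library totals). Without LM9 replicate 1 the counts were 13 and 24 in LM1 and 10 and 27 in LM9. Without Adm, Ankrd37, Slc16a3, Stc2 and Tgfa, which were under 10 counts throughout a group, 8 of 34 rose and 20 fell in LM1 and 7 rose and 22 fell in LM9, with medians of -1.34 and -1.55. Adm, which encodes adrenomedullin, had 4 counts in all of LM1KO against 1971 in LM1, a scaled ratio of 645 (exact binomial 95% interval 252 to 2370), and 4 in LM9KO against 2870 in LM9, a ratio of 1061 (414 to 3898). Aldoc, a glycolytic aldolase, fell from 223 ± 1.63 CPM in LM1 to 2.37 ± 0.196 in LM1KO (SD, n = 3), and the growth factor gene Tgfa, at 37.2 CPM in LM1, had at most 5 counts in any KO-labelled library. Vegfa, the angiogenic growth factor, fell (log2 fold change -2.80 and -3.33), as did Ero1l (-4.47 and -4.61), an oxidase of the endoplasmic reticulum. The list was not uniform. Slc16a3, the lactate exporter, had 3 counts in all of LM1 against 9586 in LM1KO, a scaled ratio of 2441 (835 to 11839). It had 0 counts in LM9 and was at least 693-fold higher in LM9KO, against a floor of 3 counts per library. Stc2 had 1 count in each parental line against 2435 in LM1KO and 2300 in LM9KO, which leaves ratios of 334 to 73504 and 279 to 61436 within the same kind of interval. Lox was not analysed here.

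**Figure D5:**
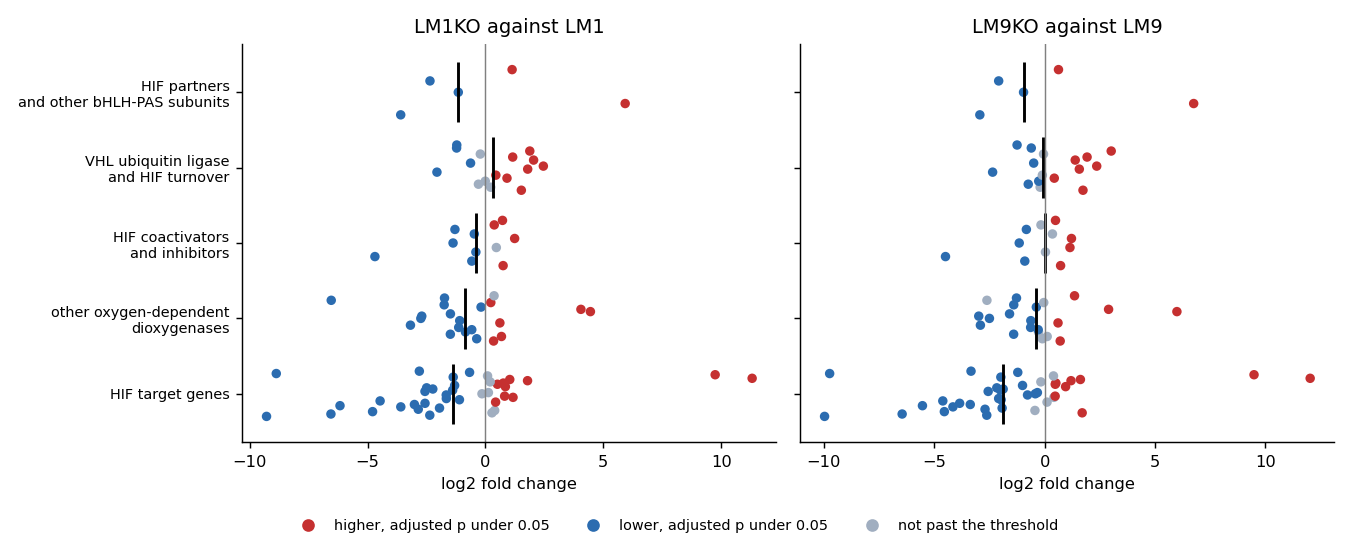
Fitted log2 fold changes of the genes in the 5 pathway lists, left for LM1KO against LM1 and right for LM9KO against LM9, with 1 point per gene coloured by its call and a bar at each list's median. The HIF target list has its median at -1.37 and -1.88, and the turnover and coactivator lists spread to both sides of 0, the LM9 median of the turnover list being -0.08 here and 0.28 with library totals.

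The genes whose pattern over the 12 libraries lay nearest to Hif1a, Epas1 and Egln3 were found among 9061 genes by the root mean square difference of centred log2 CPM. For Hif1a they were Acsl4 (0.0409), Plod2 (0.0431) and Mastl (0.0440), and Plod2 encodes a collagen lysyl hydroxylase. For Egln3 they were Mesd (0.0470), Ube2l6 (0.0524) and Sec22b (0.0528). Epas1 had no such close neighbour, the nearest being AA467197 (0.488), Perp (0.508) and Cryab (0.527), and Epas1 itself had 1 to 7 counts in each parental library. All of these patterns share the same libraries and scaling.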

How the data were processed

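Poly(A)-selected RNA of tumourspheres was sequenced with a stranded single-end protocol. The authors aligned reads to mm10 with STAR and deposited raw counts, the 5′ ends of reads over each gene's exons counted with QuasR. The deposited counts were used unchanged here.

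Of 18278 Ensembl identifiers, 18268 matched GENCODE M21, and 18176 genes passed filterByExpr of edgeR 4.0.16 (count minimum 10). CPM were scaled by TMM factors (0.822 to 1.11), and TPM used each gene's merged exon length. limma-voom (limma 3.58.1, R 4.3.3) was fitted to all 12 libraries with a mean per group, with Benjamini-Hochberg adjustment over all genes and calls at 0.05. The procedure was tested on simulated counts. edgeR's quasi-likelihood test, DESeq2 1.42.0, other scalings and filters, and leaving out each library were alternatives.

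A level of 3 counts corresponded to 0.0730 to 0.121 CPM. The labels do not say that replicates were separate cultures, so p-values measure only the spread between these libraries, which may be technical. Same-numbered libraries did not deviate together (r -0.0587 to 0.0250), so numbers were not taken as pairs. The genes and lists were chosen with earlier results of these data known. Named list genes were up to 3 with the largest rise and up to 3 with the largest fall, called in both lines with the same sign and at a mean of at least 10 CPM, and the nearest patterns were the 3 closest named protein-coding genes. A gene that this rule names is not reported here. Nfib, Vegfa and Ero1l were named as genes of the study. Leaving out LM9 replicate 1 for the lists, named genes and ratios, and jointly with library totals, the floor on Epas1 counts in the ratio, and list counts without genes under 10 counts throughout a group were chosen after seeing the data.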

Additional observations from a re-analysis of the deposited data

How the results depend on the processing

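Counts of the 8 genes here include Epas1, which passed the count filter only where it is high. The directions of the 8 genes in KO-labelled against parental libraries held under each alternative run, among which TPM was not. In TPM, Egln3 in LM9 replicates 2 and 3 (65.0 and 66.7) was below LM9KO (78.8 to 82.7). Mean Egln1 was at 36.4 TPM in LM1 and 36.5 in LM1KO, so 2 of the directions did not hold on that scale throughout. Apart from a requirement on fold, the calls held with 2 exceptions, Egln1 in LM1 and Egln3 in LM9, both described in the report. With an absolute log2 fold change above 1 required, 6 of the 8 passed in LM1KO against LM1 (beside 55.0% of all genes), where Egln2 was lost, and 5 in LM9KO against LM9 (57.5%), where Egln1, Egln2 and Egln3 were lost. LM1 against LM9 gave 0 calls, but 2 with DESeq2 (beside 33.1% of all genes), 4 with library totals (28.8%), 3 with a mean of at least 5 CPM (39.4%), 7 with sample quality weights (63.8%), 7 with library totals and without LM9 replicate 1 (65.5%), and 0 to 6 on leaving out 1 library. The difference between lines gave 0, but 7 with quality weights (beside 58.1% of all genes), 6 with library totals and without LM9 replicate 1 (57.3%), and 0 to 6 on leaving out 1 library, the 6 coming from LM9 replicate 1 each time. For LM1 against LM9 the cause of the other counts was not tested. Sign changes occurred only in values that did not pass. The Egln2 difference between lines (0.01) became -0.000661 with edgeR, -0.126 with library totals, -0.0347 with quality weights, -0.207 with library totals and without LM9 replicate 1, and -0.0737 to 0.0757 on leaving out 1 library. Egln2 in LM1 against LM9 ran from -0.0103 to 0.137 on leaving out 1 library, Arnt in LM1KO against LM9KO from -0.00753 to 0.0282, and Hif1an from -0.0387 to 0.0176. With the replicate block the calls were 7, 8, 0, 0 and 0 of the 8 genes over the 5 comparisons, as without it. The shares of all genes were 80.3%, 81.6%, 0%, 0% and 0%. Pairing the libraries by number cannot change the mean difference in the Hif1a to Epas1 ratio (-8.26) or in the Egln3 share (-15.5 percentage points). With groups of equal size the paired and unpaired means are equal by arithmetic, so pairing is no check on them. The depth limits Epas1 in the parental libraries, where counts of 1 to 7 leave the fold uncertain. The Egln3 share kept its direction with the longest transcript and with no length correction. The difference in the log2 ratio of Hif1a to Epas1 is the same under any choice of length by arithmetic, so that choice is no check on it.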
